A study of Caenorhabditis elegans with 6 samples.

Results

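The RNA-binding proteins that load and guide the oocyte of Caenorhabditis elegans were examined here through the transcripts of 9 genes: oma-1, oma-2, mex-5, mex-6, pos-1, mex-3, puf-5, puf-11 and gld-1. They were taken by name, and the array held 12 probes for them among 22490 worm probes, with 3 probes for puf-11, 2 for mex-3 and 1 for each of the others. These are 9 of 17922 genes with a named probe. Worms of the wild type strain N2 were placed as eggs on agar dishes seeded with the bacterium E. coli OP50, and the dishes held either diazinon (DZN) in acetone, named in the labels as nematodes treated with 1mg/ml of Diazinon, or acetone alone (control nematodes). DZN is an organophosphorus insecticide that inhibits acetylcholinesterase. A lower dose, 0.5 mg/ml, stands in the treatment protocol. The paper's methods instead state 1 mg/l of DZN, a far lower concentration than either, and its supporting gene lists repeat that value. The paper calls its concentrations sub-lethal, and in it 0.5 mg/l is the dose of another pesticide, chlorpyrifos. The dose reported by the paper is thus 1 mg/l, and the mg/ml figures of the labels and protocol conflict with it. Each sample was whole worms pooled from 4 dishes after 72 h at 16 °C, and germ line and soma were therefore measured together. The labels call them L3/L4 larvae, and the protocol L3. Each of 6 two-colour arrays set 1 DZN extract against 1 control extract. The dye Cy5 marked DZN on 3 arrays (DZN-Cy5 replicates 1 to 3) and Cy3 marked it on the other 3 (DZN-Cy3 replicates 1 to 3).

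In the worm gonad, transcription is silent in the full-grown oocyte and the early embryo, so that fertilisation is managed with stored mRNA whose translation RNA-binding proteins switch on and off. OMA-1, OMA-2, MEX-5, MEX-6 and POS-1 are CCCH zinc finger proteins, MEX-3 and GLD-1 bind RNA through KH domains, and PUF-5 and PUF-11 belong to the Pumilio family. GLD-1 acts first, holding mRNAs silent in meiotic germ cells before the oocyte forms. The others act in the growing oocyte or in the zygote, where MEX-5, MEX-6, POS-1 and MEX-3 help to make front and back different.

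All 9 transcripts were detected on every array. The brightest probe of each gene exceeded the local background by 2 SD in all 12 channels, as did 42.1% of all worm probes, and no pixel of a member's spot was saturated. Of the dimmer probes, puf-11 probe 2 missed that limit in both channels of DZN-Cy5 replicate 2, and puf-11 probe 3 missed it in the control channel of that array. Several spots were dim there: in its control channel puf-5, pos-1 and oma-1 read 207, 217 and 223 before correction, against a median of 188 over all probes. In bulk samples such as these, fewer germ cells and less RNA in each germ cell cannot be told apart.

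The first question was whether DZN changed the level of these maternal transcripts. None was called. In limma, with dye orientation as a term and Benjamini-Hochberg adjustment over all probes, 0 of the 9 genes passed an adjusted p of 0.05, and 0 passed an unadjusted p of 0.05. Rank products, the test named in the methods, called 0 as well at a percentage of false positives (PFP) under 0.05. For comparison, limma called 4 probes (0.0178% of all probes), 3 of them higher (0.0133%) and 1 lower (0.00445%), while 7.49% of probes were lower and 3.37% higher at an unadjusted p under 0.05. With median centring in place of loess limma called 30 probes, 19 of them higher. Rank products called 0.64% of probes lower and 0.52% higher.

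The mean log2 ratios of DZN over control lay between -0.12 for oma-1 and 0.23 for mex-3, 3 below 0 and 6 above 0. In size these changes were 1.00- to 1.18-fold. Their median was 0.03, against 0.00 over all probes, and the adjusted p values from limma ranged from 0.598 to 0.997. A p above the threshold does not show that the levels were equal. The 95% intervals of limma reached from -0.82 for oma-1 to 0.85 for puf-11 at the widest, so that mean changes of up to 1.77-fold downwards or 1.81-fold upwards lay within them. The narrowest intervals, of mex-6 and mex-3, ran from -0.39 to 0.28 and from -0.11 to 0.58. No member kept a single sign over the 6 arrays, a pattern shown by 3.11% of all probes below 0 and 2.06% above 0.

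**Figure D1:**
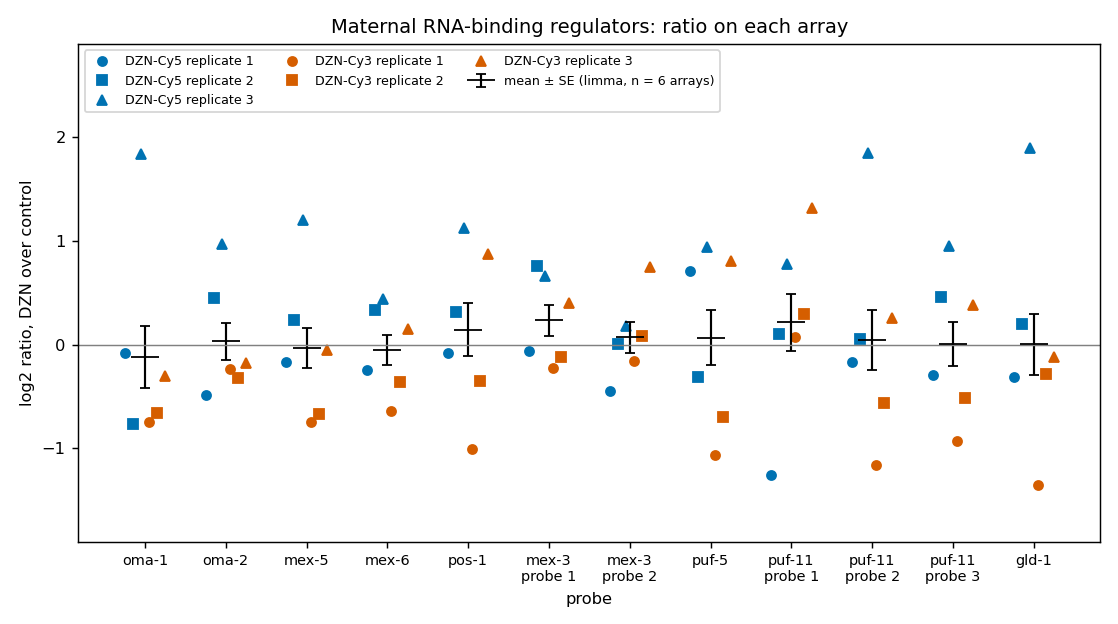
The log2 ratio of DZN over control (vertical axis) is plotted for each of the 12 probes (horizontal axis), with a point for each array, blue where DZN was in Cy5 and orange where it was in Cy3, and a bar for the limma mean with its SE (n = 6 arrays). The means lie between -0.12 and 0.23, while single arrays reach from -1.36 to 1.89, and DZN-Cy5 replicate 3 gives the top point for 7 of the 9 brightest probes.

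Behind these means near 0 stood wide swings between arrays, beginning with the OMA pair, whose proteins act redundantly to let the oocyte mature and are cleared from the embryo after the first division. The oma-1 ratio (C09G9.6) was -0.08, -0.77 and 1.83, in replicate order, where DZN was in Cy5 and -0.75, -0.66 and -0.30 where it was in Cy3. It was thus below 0 on 5 of 6 arrays and high on a single one. Its log2 level ran from 9.05 to 11.59 in control (median 10.65) and from 8.28 to 12.81 in DZN-treated worms (median 10.13), and the groups overlapped. The mean ratio was -0.12 ± 0.30 (SE in limma, n = 6 arrays, adjusted p = 0.913). Without DZN-Cy5 replicate 3 it was -0.50, also not called (adjusted p = 0.339).

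Its partner oma-2 (ZC513.6) gave -0.49, 0.45 and 0.97 on the DZN-Cy5 arrays and -0.23, -0.32 and -0.18 on the DZN-Cy3 arrays. The mean was 0.03 ± 0.18 (SE, limma adjusted p = 0.965), the control level being 9.20 ± 0.75 and the DZN level 9.23 ± 0.99 (SD, n = 6). The ratios of the pair shared a sign on 5 of 6 arrays and parted on DZN-Cy5 replicate 2, where they were 1.22 apart. The oma-1 spot was dim there, at 223 in control and 232 with DZN before correction. The medians over all probes were 188 and 250.

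MEX-5 and MEX-6 are close relatives that gather at the front of the zygote and confine germ line proteins to its rear. The mex-5 transcript (W02A2.7) had ratios of -0.16, 0.24 and 1.21 with DZN in Cy5, and of -0.74, -0.67 and -0.05 with DZN in Cy3. Levels overlapped, with medians of 10.96 in control (10.58 to 11.50) and 10.72 in DZN-treated worms (9.83 to 12.46). The mean was -0.03 ± 0.19 (SE, limma adjusted p = 0.969). The mex-6 transcript (AH6.5) ran from -0.64 on DZN-Cy3 replicate 1 to 0.44 on DZN-Cy5 replicate 3, with an SD over arrays of 0.42, close to the 0.43 of mex-3 and below those of the other 7 genes, and a mean of -0.05 ± 0.14 (SE, limma adjusted p = 0.922). These relatives shared a sign on 5 of 6 arrays, and their ratios differed by 0.08 to 0.77.

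POS-1 is needed for fates of the posterior embryo, where it keeps the Notch receptor mRNA glp-1 from being translated. The pos-1 ratio (F52E1.1) was -0.08, 0.32 and 1.12 on the DZN-Cy5 arrays and -1.01, -0.35 and 0.87 on the DZN-Cy3 arrays, 3 on either side of 0. Control levels ran from 7.95 to 10.44 and DZN levels from 7.87 to 10.52, so that the groups covered nearly the same span. The mean was 0.14 ± 0.25 (SE, limma adjusted p = 0.866).

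MEX-3 represses the mRNA of the posterior factor PAL-1 in the oocyte and the anterior embryo. Its brightest probe, named for isoform a (F53G12.5a), gave -0.07, 0.76 and 0.67 with DZN in Cy5 and -0.23, -0.12 and 0.40 with DZN in Cy3, and its mean of 0.23 ± 0.15 had the smallest p of the 9 (SE, unadjusted p = 0.153 and adjusted p = 0.598 in limma). It was above 0 under each setting tried. Several of these settings, such as no dye term or a replicate block, left the mean unchanged, so its sign could not differ there. The probe named for isoform b gave a mean of 0.07 ± 0.15 (limma adjusted p = 0.894). These probes shared a sign on 5 of 6 arrays, and the largest gap between them was 0.75, on DZN-Cy5 replicate 2.

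The Pumilio proteins PUF-5 and PUF-11 act with other members of their family while the oocyte grows. The puf-5 ratio (F54C9.8) was 0.71, -0.31 and 0.94 on the DZN-Cy5 arrays and -1.06, -0.69 and 0.80 on the DZN-Cy3 arrays, with a mean of 0.06 ± 0.27 (SE, limma adjusted p = 0.952). Levels lay between 8.03 and 9.07 in control and between 7.79 and 10.01 in DZN-treated worms. For puf-11 (Y73B6BL.38) the brightest probe gave -1.26, 0.10 and 0.78 with DZN in Cy5 and 0.07, 0.29 and 1.31 with DZN in Cy3, above 0 on 5 of 6 arrays (mean 0.22 ± 0.27, limma adjusted p = 0.80).

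The 3 puf-11 probes did not run together. On DZN-Cy3 replicate 1 they gave 0.07, -1.16 and -0.93, the widest gap of any array at 1.24, and all 3 shared a sign on 4 of 6 arrays. The dimmer probes had means of 0.04 ± 0.29 and 0.01 ± 0.21 (limma adjusted p = 0.973 and 0.991). Ratios of puf-5 and of the brightest puf-11 probe shared a sign on 2 of 6 arrays. Probe sequences were not used here, so cross-hybridisation among related genes was not checked.

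GLD-1 had the widest swing. The gld-1 ratio (T23G11.3) was -0.31, 0.20 and 1.89 on the DZN-Cy5 arrays and -1.36, -0.29 and -0.12 on the DZN-Cy3 arrays, an SD over arrays of 1.06 around a mean of 0.00 ± 0.29 (SE, limma adjusted p = 0.997). Control levels ran from 10.42 to 13.04 (median 11.10) and DZN levels from 9.90 to 12.83 (median 11.31), and the groups overlapped. On DZN-Cy5 replicate 3 the level was 10.94 in the control channel and 12.83 in the DZN channel, and on DZN-Cy3 replicate 1 it was 11.26 in control against 9.90.

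**Figure D2:**
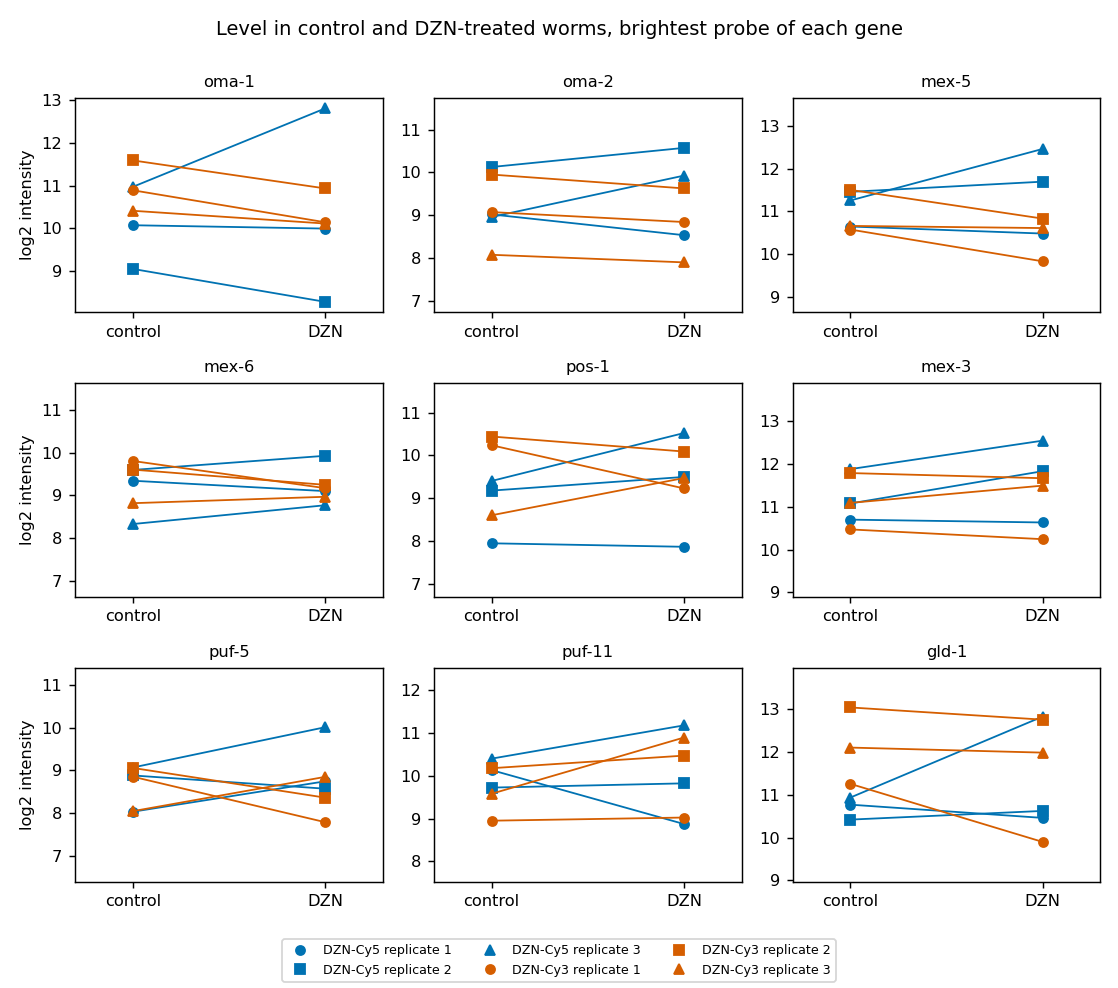
The log2 intensity after normalization (vertical axis, each panel spanning the same range of 5 log2 units) is plotted for control and DZN-treated worms (horizontal axis) in 9 panels, 1 per gene, with a line joining the channels of each array in the colours and symbols of its orientation and replicate. Lines run both up and down in every panel, and the control and DZN points overlap for all 9 genes. Levels of different genes come from different probes and are not comparable.

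The swings were shared by most of the 9 genes and differed from array to array. Over the members, the mean ratio was -0.22, 0.15 and 1.09 with DZN in Cy5 and -0.66, -0.35 and 0.32 with DZN in Cy3, a mean of 0.05 with an SD over arrays of 0.62. Loess sets the ratios of each array as a whole close to 0, so these values are relative to all probes of the array. On DZN-Cy5 replicate 3 all 9 genes were above 0, from 0.44 to 1.89. On DZN-Cy5 replicate 1, DZN-Cy3 replicate 1 and DZN-Cy3 replicate 2, 8 of 9 were below 0, and DZN-Cy3 replicate 1 gave the lowest value of 6 genes. The SD over arrays had a median of 0.79 among the members, against 0.35 over all probes, which include probes never above background. For 7 of the 9 it was above the 75th percentile of all probes.

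Channel levels were rebuilt from the average intensity of a spot and its ratio, which is shared equally between control and DZN. They therefore cannot show which channel moved, and their spread also carries that of the average intensity. The mean log2 level of the 9 genes ran from 9.63 to 10.79 in the control channels and from 9.35 to 11.23 in the DZN channels. The SD of the rebuilt level over arrays was larger for DZN than for control in 7 of the 9 genes, a difference that was not tested. The lowest DZN value was that of DZN-Cy3 replicate 1 and the highest that of DZN-Cy5 replicate 3.

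**Figure D3:**
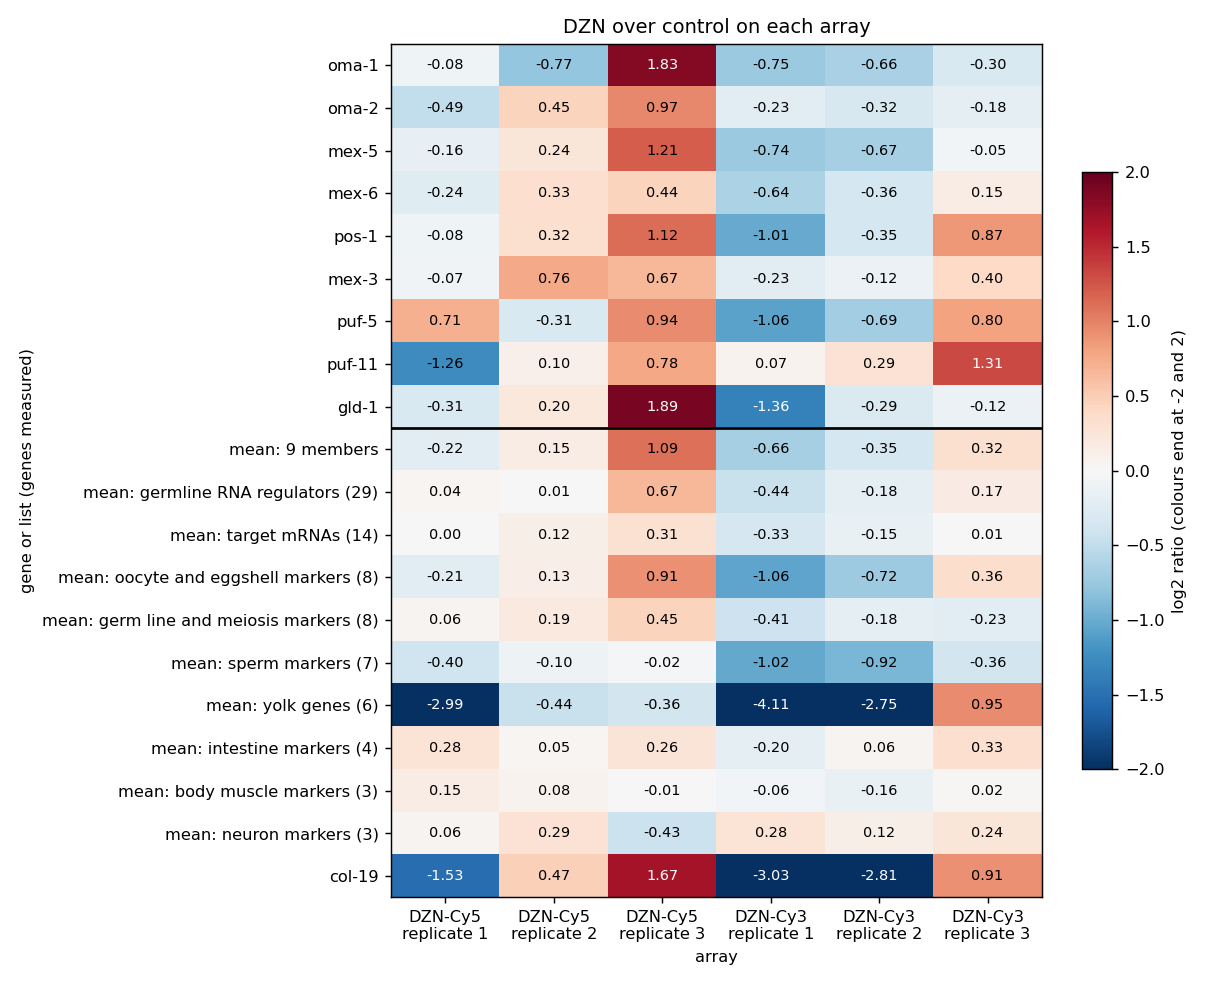
Colours and printed numbers give the log2 ratio of DZN over control (blue lower, red higher, colours ending at -2 and 2) for the 9 genes, for list means with the number of genes measured, and for the adult collagen gene col-19 (rows), on each of the 6 arrays (columns). The mean of the 9 genes runs from -0.66 to 1.09, the mean of the oocyte and eggshell markers from -1.06 to 0.91, and the mean of the muscle markers from -0.16 to 0.15.

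Dye orientation was examined next. Of the 9 genes 8 had higher ratios on the arrays with DZN in Cy5 than on those with DZN in Cy3, by 0.43 (mex-3) to 1.18 (gld-1), while the brightest puf-11 probe differed by -0.69 ± 0.55 (SE, limma). The dimmer probes went the other way from the brightest of their gene, by 1.07 ± 0.58 and 0.73 ± 0.42 for puf-11 and by -0.31 ± 0.30 for mex-3. The member mean was 0.34 ± 0.68 on the DZN-Cy5 arrays and -0.23 ± 0.50 on the DZN-Cy3 arrays (SD, n = 3 each). None of these differences passed: limma called 0 members and 0 probes at all for the dye term (0% of probes), and the smallest adjusted p of a member was 0.419, for mex-5. At an unadjusted p under 0.05, mex-5 alone passed (0.91 ± 0.38), against 11.7% of all probes.

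The DZN-Cy3 arrays were also the brighter ones, where each channel had between 63.3% and 81.4% of its probes above background, while channels of the DZN-Cy5 arrays had between 49.7% and 66.2%. The detector setting for Cy3 was 55 on DZN-Cy3 replicates 1 and 2 and 50 on the other 4 arrays, so the higher setting holds a single orientation. Those 2 arrays gave the lowest member means, -0.66 and -0.35. The detector setting for Cy5 was 50 on replicate 3 of each orientation and 48 on the other 4 arrays, and the replicate 3 arrays gave the highest member means, 1.09 and 0.32. Without the arrays of higher Cy3 setting the mean of the 9 genes was 0.33, and without those of higher Cy5 setting it was -0.27. Both choices were made after seeing the data, and 0 members were called by limma in either, while the calls over all probes numbered 0 in the former and 705 in the latter, 81 of them higher. The part of brightness and detector settings in the swings was not tested.

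Other genes of oocyte and germ line were then set beside the 9. None of 29 other RNA-binding and translational regulators of the germ line, which include fbf-1, pie-1 and the cytoplasmic poly(A) polymerase gene gld-2, was called by limma or rank products, with 18 above 0, 11 below 0 and a median of 0.03. Among those well detected, the highest were puf-8 (0.41 ± 0.22), a Pumilio relative, and spn-4 (0.39 ± 0.32), an RNA-binding factor of the early embryo, and the lowest nos-3 (-0.26 ± 0.20), of the Nanos family, and puf-3 (-0.25 ± 0.29). The limma adjusted p of these 4 lay between 0.538 and 0.780. The list mean was 0.04, 0.01 and 0.67 on the DZN-Cy5 arrays and -0.44, -0.18 and 0.17 on the DZN-Cy3 arrays, lowest and highest on the same arrays as the mean of the 9 genes, with a different sign on DZN-Cy5 replicate 1. A gene chosen after its values were seen, the germ cell sex determination gene fog-1, was above 0 on all 6 arrays (0.37 ± 0.11, limma adjusted p = 0.328). So were 2.06% of all probes. It was the 1 gene of these 29 with an unadjusted p under 0.05 in limma, where 3.37% of all probes were higher.

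Of 14 mRNAs known as translational targets of these proteins 0 were called by limma or rank products, with 9 above 0 and a median of 0.01. The lowest was pal-1, a homeobox gene whose mRNA MEX-3 and GLD-1 hold silent, at -0.45 ± 0.14 (limma adjusted p = 0.337). It was below 0 on 6 of 6 arrays, as were 3.11% of all probes. It was the 1 target of 14 with an unadjusted p under 0.05 in limma, where 7.49% of all probes were lower. The next lowest was gna-2 (-0.23 ± 0.16, adjusted p = 0.632), an enzyme gene of eggshell chitin synthesis. The highest were mes-3 (0.26 ± 0.18), of a Polycomb-like complex, and zif-1 (0.21 ± 0.16), whose product marks CCCH proteins for degradation (limma adjusted p = 0.634 and 0.657). The yolk receptor gene rme-2, a GLD-1 target, had 0.01 ± 0.19 and ran from -0.68 to 1.03 over arrays. The 14 include cdc-25.3, which was above background on 0 control and 0 DZN arrays.

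The 17 measured genes of kinases, polarity proteins, degradation factors and other partners of these proteins gave 0 calls in limma and in rank products, with 11 below 0 and a median of -0.11. They included mbk-2 (-0.12 ± 0.13), the kinase that primes OMA-1 for destruction. The lowest well detected were par-2 (-0.27 ± 0.16), a polarity gene, and egg-4 (-0.27 ± 0.18), a pseudophosphatase gene that restrains MBK-2. The highest were gsk-3 (0.22 ± 0.15) and kin-19 (0.12 ± 0.12), both kinase genes. The limma adjusted p of these 5 was 0.576 to 0.765, and 0 of the 17 had an unadjusted p under 0.05. The counts include par-4 and plk-2, which were above background on 0 control and 0 DZN arrays.

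Markers of oocyte and eggshell varied over the arrays as widely as the 9 genes. Their mean over 8 genes was -0.21, 0.13 and 0.91 on the DZN-Cy5 arrays and -1.06, -0.72 and 0.36 on the DZN-Cy3 arrays, with 0 calls in limma and in rank products, 0 genes at an unadjusted p under 0.05 and a median of -0.10. The lowest of them was perm-2, an eggshell permeability gene, with -0.48 ± 0.40 and a range from -2.44 to 0.80. Others were cbd-1 (-0.22 ± 0.16) and cpg-1 (0.21 ± 0.36), of the eggshell, and egg-1 (0.07 ± 0.29), of the oocyte surface (limma adjusted p of the 4 between 0.656 and 0.952). The defining genes were above background on 5 or 6 arrays of each treatment, except chs-1, the eggshell chitin synthase gene, on 1 control and 0 DZN arrays.

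Genes of P granules and meiotic chromosomes had a narrower range of list means, -0.41 to 0.45, with 0 calls in limma and in rank products over 8 genes. The meiotic axis gene him-3 (-0.40 ± 0.10) and the synapsis gene syp-2 (-0.31 ± 0.11) had limma adjusted p = 0.281 and 0.375. Both were below 0 on 6 of 6 arrays, as were 3.11% of all probes. They were the 2 of the 8 with an unadjusted p under 0.05 in limma, where 7.49% of all probes were lower. The highest were the cohesin gene rec-8 (0.21 ± 0.12) and the axis gene htp-3 (0.17 ± 0.16). Sperm markers were below 0 for 7 of 7 measured genes, against 49.2% of all probes, with a list mean between -1.02 and -0.02 over arrays. The listed gene spe-10 was not measured. Of the 7, 2 were above background in all 12 channels. Both spe-42 and fer-1 were above it on 4 control and 4 DZN arrays. On 6 of 6 arrays spe-4, spe-11 and spe-26 were below 0, as were 3.11% of all probes. Rank products called spe-11, a paternal factor, lower (-1.02 ± 0.17, limma adjusted p = 0.133). In limma 0 were called, with 4 of the 7 lower at an unadjusted p under 0.05, against 7.49% of all probes.

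Genes that mark adulthood also changed between arrays. The 6 yolk genes vit-1 to vit-6, made in the adult intestine, were all called lower by rank products, against 0.64% of all probes. In limma 0 were called, with 4 lower at an unadjusted p under 0.05, against 7.49% of all probes. Their SD over arrays had a median of 2.08, against 0.35 over all probes, and rank products assumes equal spread. The yolk genes had means of -2.99, -0.44 and -0.36 on the DZN-Cy5 arrays and -4.11, -2.75 and 0.95 on the DZN-Cy3 arrays. Each was above background on at least 5 control and 4 DZN arrays, although the worms were labelled as larvae. Their mean ratios lay between -2.16 (vit-5) and -1.03 (vit-2). On DZN-Cy5 replicates 2 and 3 the yolk mean was below 0, while the member mean was 0.15 and 1.09. On the other arrays these means shared a sign. The adult collagen gene col-19 had ratios of -1.53, 0.47 and 1.67 and of -3.03, -2.81 and 0.91 in the same order, its sign matching that of the member mean on each of the 6 arrays, and rank products called it lower (-0.72 ± 0.58, limma adjusted p = 0.680). The other hypodermal genes, both of the cuticle collagens, did not match on every array: dpy-7 (-0.24 ± 0.15) was -0.41 and -0.39 on DZN-Cy5 replicates 2 and 3, and rol-6 (0.17 ± 0.10) was 0.28 on DZN-Cy5 replicate 1. The mean of these 3 ran from -0.89 to 0.55 over arrays. In other tissues the list means over arrays ran from -0.16 to 0.15 for body muscle, from -0.20 to 0.33 for intestine and from -0.43 to 0.29 for neurons. The esterase gene ges-1 of the intestine had the highest ratio of these (0.55 ± 0.29, limma adjusted p = 0.537), and act-5 (-0.09 ± 0.15), an intestinal actin gene, the lowest. The muscle genes ran from -0.06 ± 0.10 (unc-54, a myosin heavy chain gene) to 0.08 ± 0.10 (unc-15, the paramyosin gene), and the neuronal genes from 0.04 ± 0.12 (snb-1, synaptobrevin) to 0.16 ± 0.13 (unc-119). In limma and in rank products 0 of these 10 genes were called, and 0 had an unadjusted p under 0.05. The part of stage or of germ line content in the ratios of the 9 genes was not tested.

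The genes most like the 9 were sought among 8514 others above background in all 12 channels, by the root mean square difference of their ratios from the mean of the 9 over 6 arrays. The closest were Y39A3CL.4 (0.16), znfx-1 (0.17), ssq-3 (0.19), idpc-5 (0.20) and C14B1.7 (0.20). The distance of the 9 genes from their own mean was 0.21 for mex-5 to 0.72 for puf-11, and the 5 genes above were picked for a small distance. Y39A3CL.4 had ratios of -0.03, 0.23 and 1.03 on the DZN-Cy5 arrays and -0.41, -0.14 and 0.36 on the DZN-Cy3 arrays. Its mean was 0.17 ± 0.17 (limma adjusted p = 0.733). For znfx-1 the ratios were -0.11, 0.04 and 1.12 on the DZN-Cy5 arrays and -0.38, -0.08 and 0.27 on the DZN-Cy3 arrays, with a mean of 0.14 ± 0.18 (limma adjusted p = 0.80).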

How the data were processed

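Per the file headers, the authors scanned the arrays with ScanArray Express. Their deposited files give, for each spot, an unnormalized linear intensity and the percent of saturated pixels. The deposited table of log2 ratios per array, with column medians between -0.01 and 0.02, matched a loess fit without background correction turned to DZN over control (correlation 1.00 on each array), and served as an alternative. The submitters' processing notes name limma. No source used here names the genome build of the probe design. Header and label named the same dyes on 6 of 6 arrays.

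Spot means were corrected with normexp (offset 50), normalized by loess with the 742 other spots at weight 0 and by Aquantile between arrays, and fitted with lmFit and eBayes (limma 3.58.1, R 4.3.3), with a dye term and Benjamini-Hochberg adjustment over 22490 probes. The fit left 4 residual degrees of freedom, to which eBayes added 3.56. For names only, probes were looked up in RefSeq's genes of WBcel235: 21413 probes matched a gene and 1077 did not. A gene is represented by its brightest probe. Rank products (100 permutations) were written from the published definition, which assumes equal spread of all genes. Scripts were tested on simulated data.

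The members and lists were chosen with earlier results of these data known. All member probes are named. From the other lists, genes called by limma or rank products are named, and otherwise the 2 highest and 2 lowest above background on at least 3 arrays in each treatment, apart from genes said to be chosen after their values were seen and genes named to describe a list. The arrays are biological replicates per the methods. Columns of sample values outside the design numbered 0. Array number limits the precision.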

Additional observations from a re-analysis of the deposited data

Results flagged for a closer look

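The oma-1 ratio on DZN-Cy5 replicate 3, at 1.83, lay far from the other 5 arrays, of which the nearest gave -0.08. The gap was 0.734 of the whole range of the 6 arrays. Chance alone flags about 5% of such groups, and 12 probes were examined. That array also gave the highest ratio of 7 of the 9 genes. The spot was above background in both channels of that array, and no pixel was saturated.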

How the results depend on the processing

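No setting called a member: the count of members called was 0 under each of 22 alternatives, and the smallest adjusted p of any member was 0.120 (oma-1, without the arrays of higher Cy5 detector setting). These were not all separate checks. Leaving out the between-array step gave the same ratios and adjusted p values as the main fit. The authors' table nearly repeated the fit without background correction. The mean of the 9 genes lay between -0.13 (without DZN-Cy5 replicate 3) and 0.19 (without DZN-Cy5 replicate 1) when an array was left out, and between -0.27 (without the arrays of higher Cy5 setting) and 0.33 (without those of higher Cy3 setting) under the others. Over all probes, the count of 4 calls became 2 without background correction, 0 after plain subtraction, 30 with median centring, 8 with scale normalization, 16 with robust and trended eBayes, 14 without dim probes, 2 in the authors' table, 261 in rank products, 0 without the arrays of higher Cy3 setting and 705 without those of higher Cy5 setting. With 1 array left out it ranged from 0 to 132: 0 when DZN-Cy5 replicate 1 or else DZN-Cy3 replicate 2 was dropped, 1 when DZN-Cy5 replicate 3 or else DZN-Cy3 replicate 1 was, and 132 without DZN-Cy3 replicate 3.

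Ratios near 0 changed sign. With no background correction puf-5 and gld-1 were -0.0220 and -0.0132, in the authors' table -0.0230 and -0.0128, and with scale normalization -0.0025 and -0.0559. With median centring mex-5 and mex-6 were 0.0722 and 0.0463, and without the arrays of higher Cy3 setting oma-1, mex-5 and mex-6 were 0.0149, 0.19 and 0.16. Without those of higher Cy5 setting oma-2, pos-1, puf-5, puf-11 and gld-1 were -0.15, -0.28, -0.34, -0.20 and -0.44. Leaving out 1 array gave ranges of -0.50 to 0.16 for oma-1, -0.13 to 0.23 for oma-2, -0.23 to 0.12 for mex-5, -0.16 to 0.0522 for mex-6, -0.11 to 0.36 for pos-1, -0.22 to 0.25 for puf-5, -0.00992 to 0.50 for puf-11 and -0.32 to 0.23 for gld-1. The cause was not tested.

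Over all probes, the deviations of same-numbered arrays from their orientation means had correlations of 0.15, -0.01 and -0.08 for numbers 1 to 3. The mean of the 9 genes, however, rose with the number in both orientations, from -0.22 to 1.09 and from -0.66 to 0.32. Averaging same-numbered arrays left the SD of that mean at 0.59, against 0.62 over 6 arrays. With 3 arrays per orientation, whether the numbers pair the samples could not be settled. The replicate block called 6 probes with same-numbered arrays averaged and 4 with the number as a random block. A block for slide or scan day could not be fitted, as each array was a slide of its own and the headers gave a single day.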
